A study of Vitis vinifera with 204 samples.

Results

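The week in which Cabernet Sauvignon berries of the 2013 season left the green stage, between 13 and 6 days before veraison, was described from 12 RNA-seq libraries, which fill 4 of the 68 combinations of season, day and thinning intensity in the series, with 3 libraries in each. Members were all libraries of time point 3 of that season (day -6 after veraison, 6 libraries) and of time point 2 (day -13, 6 libraries), taken by season, time point and replicate in the sample titles and source names. On each day 3 libraries came from vines thinned by 75% and 3 from vines thinned by 50%. The vines, of clone FPS 8 of Cabernet Sauvignon (Vitis vinifera) on 5C rootstock, stood near Modesto, California. All of these vines had lost part of their clusters after fruit set, so the berries of both days shared a reduced crop; unthinned vines were not analysed here. A library was made from the pericarp (skin and flesh) of a pool of 60 berries from 6 clusters, with the seeds taken out in grinding. Each treatment had 3 vineyard rows, so p-values measure the spread between pools picked in those rows.

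Veraison is the turn of a grape berry from growth as a hard, green, acid fruit to ripening. The berry softens, sugar brought by the phloem collects in the vacuoles of the flesh, malic acid declines, and in red cultivars the skin begins to make anthocyanins. Abscisic acid is known to rise at that time and to promote ripening, while auxin is known to delay it, and chlorophyll and tannin synthesis belong to the green stage. Softening and the first sugar import come before colour, so berries that are still green can already have entered ripening.

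The values were RPKM, the density of reads on a gene scaled to its length and to the size of the library, for 29971 gene IDs. Of these, 20770 (69.3%) held at least 1 RPKM in at least 3 libraries of the series and were tested. Library sums of RPKM ran from 927106 to 954137 on day -6 and from 889179 to 935288 on day -13, and read depth is unknown. The reference gene table held 0 of the 29971 IDs, so no gene names, pathway lists or seed markers could be applied. Genes are therefore described by their level, course and season. No 2 of the 12 libraries were identical, and Spearman correlations between them ran from 0.944 to 0.986.

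One day -6 library stood apart. Replicate 2 of the 75% arm listed 34 of 9114 steadily expressed genes under 0.5 RPKM, against 3 to 5 in the other day -6 libraries and 1 to 4 on day -13. It also listed 37 genes at exactly 0 although both other replicates of its arm held at least 5 RPKM, against 3 to 11 in the other day -6 libraries and 6 to 10 on day -13. Replicate 2 of the 75% arm on day -20, used below for later days, listed 33 such steady genes. These libraries were taken to hold a second, differently processed form of RPKM, a reading made from the values alone, and each main count is given with and without the library of day -6. A year tag in the labels reads 2014 for all 6 libraries of day -6 and for 4 of the 6 of day -13. The titles, source names and day after veraison place all of them in 2013, and these were followed.

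Sugar had begun to accumulate on day -6 and was close to its mean of day -20 (0.487 g/100 ml) on day -13. The 75% thinned pools of day -6 held 2.77, 2.82 and 1.60 g/100 ml, and the 50% thinned pools held 3.03, 2.91 and 2.54 g/100 ml. On day -13 the 75% thinned pools held 0.58, 0.54 and 0.52 g/100 ml and the 50% thinned pools 0.53, 0.51 and 0.51 g/100 ml. Every pool of day -6 was above every pool of day -13, and replicate 3 of the 75% arm was lowest on day -6. The mean was 2.61 g/100 ml ± 0.52 on day -6 and 0.532 ± 0.026 on day -13 (SD, n = 6 each). The difference of 2.08 g/100 ml had an exact two-sided permutation p = 0.00216, the smallest that 6 against 6 can give.

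Most of the genes that moved in this week fell, and those that rose moved further. In limma, with a Benjamini-Hochberg adjusted p under 0.05 and a change of at least 2-fold, 2444 genes (11.8% of those tested) were called on day -6 against day -13. Of these 637 rose (3.07%) and 1807 fell (8.7%). The median log2 change was 1.57 for the increases and -1.34 for the decreases, beside -0.13 over all tested genes. At least 4-fold changes made up 29.2% of the increases (186 genes, 0.896% of those tested) and 14.7% of the decreases (265 genes, 1.28%). At least 16-fold changes were 40 increases and 4 decreases. Fold changes are of log2(RPKM + 1) and understate those of genes near 1 RPKM. In bulk tissue, fewer cells of a type and less RNA per cell cannot be told apart.

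Without the library that stood apart, 613 genes rose (2.95%) and 1576 fell (7.59%). Of these, 600 and 1563 were also called with all 12 libraries, so 37 increases and 244 decreases were lost. A total of 52 tested genes were under 0.5 RPKM in that library and at least 5 RPKM in every other library of day -6. Of these, 1 was among the 1807 genes that fell and 0 were among the 244 lost decreases. The genes that fell had a median level of 5.16 RPKM on day -6, so the limit of 5 RPKM left many of them out of this count. What such low values had to do with the losses was not tested further. That library had the lowest median log2 level of day -6 (3.15, others 3.29 to 3.37), and leaving it out gave the fewest decreases of any single library. The part of its processing in this was not tested. The balance of the directions depended on scaling: 26.1% of the calls rose with the values as deposited, 31.6% after median ratio scaling (707 rose, 1527 fell) and 40% after quantile normalization (864 rose, 1296 fell). The median log2 change of all genes was -0.07 with median ratio scaling and 0.02 with quantile normalization, so the many small decreases are relative to how a library is scaled. With no demand on fold, 4545 genes rose and 8758 fell at the same adjusted p in limma.

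**Figure D1:**
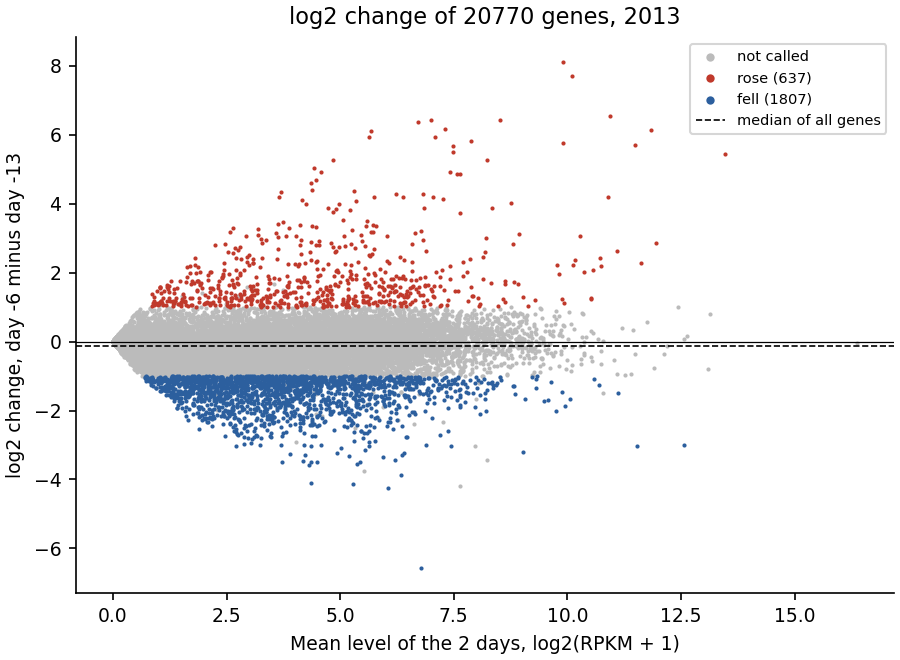
The log2 change of each of the 20770 tested genes, day -6 minus day -13, is plotted against its mean level, log2(RPKM + 1). Red points are the 637 genes that rose and blue points the 1807 that fell, the dashed line is the median of all genes at -0.13, and increases reach 8.10.

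Groups of libraries were apart for most called genes. All 6 libraries of day -6 were above all 6 of day -13 for 595 of the 637 genes that rose (93.4%), beside 15% of all tested genes. All 6 were below for 1717 of the 1807 genes that fell (95%), beside 29.3% of all tested genes. The genes were called on these same libraries, which largely sets these shares, so they are a description and no test. Calls were not spread evenly over abundance. Among the 1511 genes with a mean of at least 100 RPKM, 7.08% rose and 8.54% fell, and among the 7093 genes between 1 and 10 RPKM, 3.07% rose and 11.8% fell. The 8937 genes between 10 and 100 RPKM had 3.38% that rose and 9.06% that fell.

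In RPKM the balance of the directions was the other way round. The genes that rose summed to a mean of 138114 RPKM on day -6 and 24404 RPKM on day -13. The genes that fell summed to 37220 RPKM on day -6 and 113031 RPKM on day -13. A few genes carried much of this, since the 10 largest gains held 51.1% of the gain and the 10 largest losses 30.7% of the loss. Per library, genes that rose took 10.8% to 17.4% of all RPKM on day -6 and 2.19% to 3.52% on day -13. Genes that fell took 2.75% to 5.15% on day -6 and 11.0% to 13.3% on day -13. These shares describe genes called on the same libraries and are no test.

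Crossings of a low level by all libraries of a day were fewer. With 1 RPKM as the limit, 64 genes were at or above it in every library of day -6 and below it in every library of day -13, and 43 of these (67.2%) were called, beside 3.07% of all tested genes that rose. Most stayed low, with a median of 2.33 RPKM on day -6, a highest mean of 99.9 RPKM and log2 changes from 0.42 to 6.09. In the other direction, 243 genes were below 1 RPKM in every library of day -6 and at or above it in every library of day -13, and 136 (56%) were called, beside 8.7% of all tested genes that fell. Both sets were chosen on the same libraries, so these shares are a description. Without the library that stood apart there were 244 such genes.

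The largest increase that passed the rule for named genes was that of VIT_02s0025g04330. Its level on day -6 was 2000, 2284 and 1128 RPKM in the 75% arm and 2285, 1029 and 2685 RPKM in the 50% arm. On day -13 it was 5.15, 16.2 and 2.85 RPKM in the 75% arm and 2.24, 2.59 and 14.9 RPKM in the 50% arm. The days were more than an order of magnitude apart in every library, and replicate 2 of the 75% arm and replicate 3 of the 50% arm were already highest on day -13. The log2 change was 8.10 (SE 0.51, limma adjusted p = 3.15e-06). Its mean was 5.51 RPKM on day -20, 3904 RPKM on day 0, 3892 RPKM on day 8 and 896 RPKM on day 29 (n = 6 each), so the gene came on within this week and peaked around veraison.

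VIT_05s0094g00340 rose in the same libraries to a like level and then went further. It held 2272, 2537 and 1426 RPKM in the 75% arm and 2541, 1127 and 3126 RPKM in the 50% arm on day -6. On day -13 it held 5.31, 37.9 and 6.41 RPKM in the 75% arm and 4.98, 2.91 and 19.5 RPKM in the 50% arm. The log2 change was 7.71 (SE 0.56, limma adjusted p = 5.20e-06). Replicate 2 of the 50% arm and replicate 3 of the 75% arm were lowest on day -6 for both genes, and replicate 3 of the 75% arm was also the pool with least sugar. Means of 7055 RPKM on day 0, 8735 RPKM on day 15 and 3571 RPKM on day 29 followed (n = 6 each).

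VIT_15s0045g01490 had the largest decrease by the same rule. It held 4.59, 3.11 and 9.25 RPKM in the 75% arm and 4.26, 8.16 and 6.05 RPKM in the 50% arm on day -6. On day -13 it held 135, 99.8 and 141 RPKM in the 75% arm and 119, 157 and 94.7 RPKM in the 50% arm. The log2 change was -4.23 (SE 0.24, limma adjusted p = 2.08e-06). The decline had begun before this week and went on after it: the mean was 339 RPKM on day -20, 124 RPKM on day -13, 5.90 RPKM on day -6, 0.650 RPKM on day 0 and 0.220 RPKM on day 8 (n = 6 each).

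VIT_02s0154g00320 followed the same path. It held 5.60, 5.11 and 13.7 RPKM in the 75% arm and 9.94, 8.86 and 11.9 RPKM in the 50% arm on day -6. On day -13 it held 214, 91.2 and 98.1 RPKM in the 75% arm and 108, 252 and 140 RPKM in the 50% arm. The log2 change was -3.86 (SE 0.31, limma adjusted p = 8.14e-06). Its mean was 417 RPKM on day -20, 150 RPKM on day -13, 9.18 RPKM on day -6 and 1.32 RPKM on day 0 (n = 6 each). Both named decreases were thus under way between day -20 and day -13, while the means of both named increases stayed under 13 RPKM on these days.

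**Figure D2:**
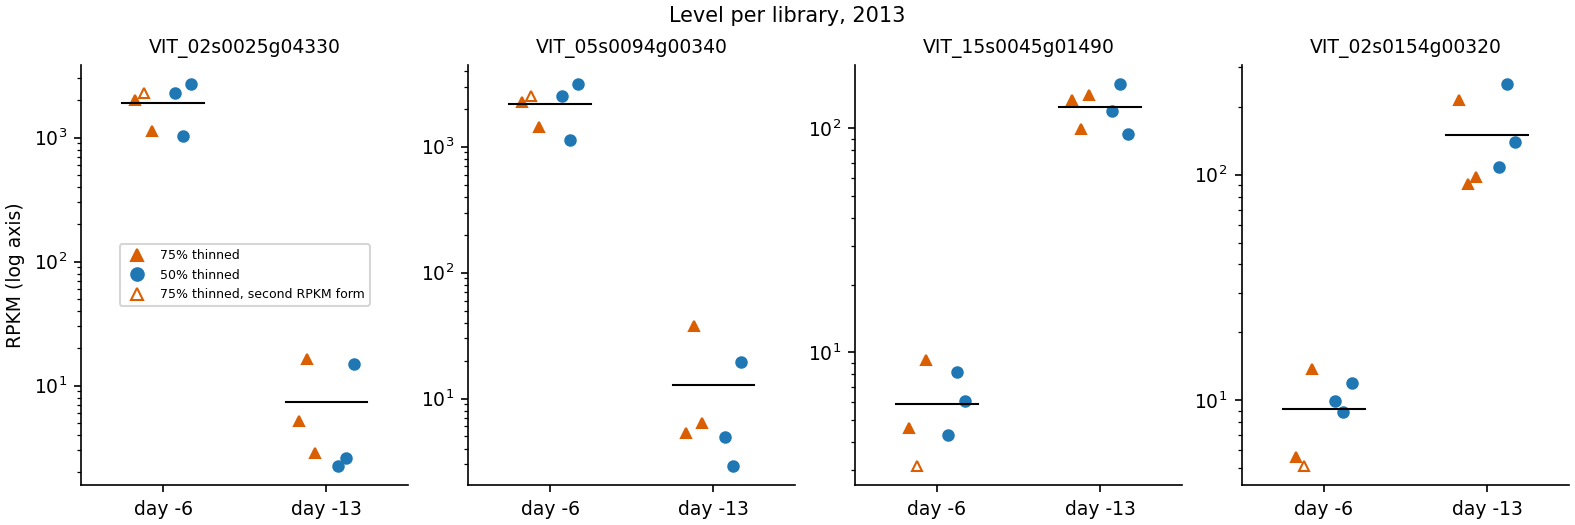
RPKM of the 2 named genes that rose and the 2 that fell in each of the 12 libraries, on log axes, with day -6 left of day -13; triangles are 75% and circles 50% thinned pools, the open triangle is the library that stood apart and the bar is the mean of 6. The days do not overlap for any of the 4 genes; VIT_02s0025g04330 lies between 1029 and 2685 RPKM on day -6 and between 2.24 and 16.2 RPKM on day -13.

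How far the berries had come by day -6 was read on genes chosen without these 12 libraries. Day 8 was compared with day -20 in limma, and 1202 genes were higher (5.79% of those tested) and 3959 lower (19.1%) on day 8. The level of each on days -13, -6 and 0 was then set as a share of its whole log2 change from day -20 to day 8. For the genes higher on day 8 the median share was 8.59% on day -13, 66.6% on day -6 and 84.6% on day 0. For the genes lower on day 8 it was 4.36% on day -13, 57.8% on day -6 and 90.3% on day 0. Mean sugar was taken as plain log2, with nothing added, unlike the log2(RPKM + 1) of the genes. On that scale it had covered 2.55% of its day -20 to day 8 change on day -13. It had covered 48.5% on day -6 and 82.6% on day 0. On a linear scale its shares were 0.299% on day -13, 14.1% on day -6 and 53.2% on day 0. Neither set of sugar shares is directly comparable with those of the genes.

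Genes differed widely in how far they had moved. On day -6 the quartiles of the share were 43.3% and 89.8% for the genes higher on day 8, and 40.5% and 74.6% for the genes lower on day 8. At least 80% of the way had been covered by 417 (34.7%) of the genes higher on day 8 and by 748 (18.9%) of those lower. The day 8 level had been passed by 201 (16.7%) and 192 (4.85%) of them. Less than 20% had been covered by 117 (9.73%) and 340 (8.59%). These percentages are of the log2 scale, so a gene at 50% of its log2 change has covered less than that of a linear increase.

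The pools of a day were not all equally advanced. The median share over the genes higher on day 8 was 69.9%, 71.9% and 54.9% in the 75% arm and 74.9%, 60.2% and 74.6% in the 50% arm on day -6. On day -13 it was 4.04%, 17.6% and 5.10% in the 75% arm and 3.06%, 4.51% and 14.5% in the 50% arm. A single pool of each arm was thus ahead on day -13, at a sugar content of 0.54 and 0.51 g/100 ml, which lay within the range of the other 4 pools. For the genes lower on day 8 the shares on day -6 were 60.2%, 73.5% and 43.7% in the 75% arm and 60.9%, 46.6% and 58.4% in the 50% arm, and on day -13 all lay between 1.21% and 8.11%. The library that stood apart had the highest share of day -6 on the lower genes and a middle one on the higher genes; the part of its processing in this was not tested.

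**Figure D3:**
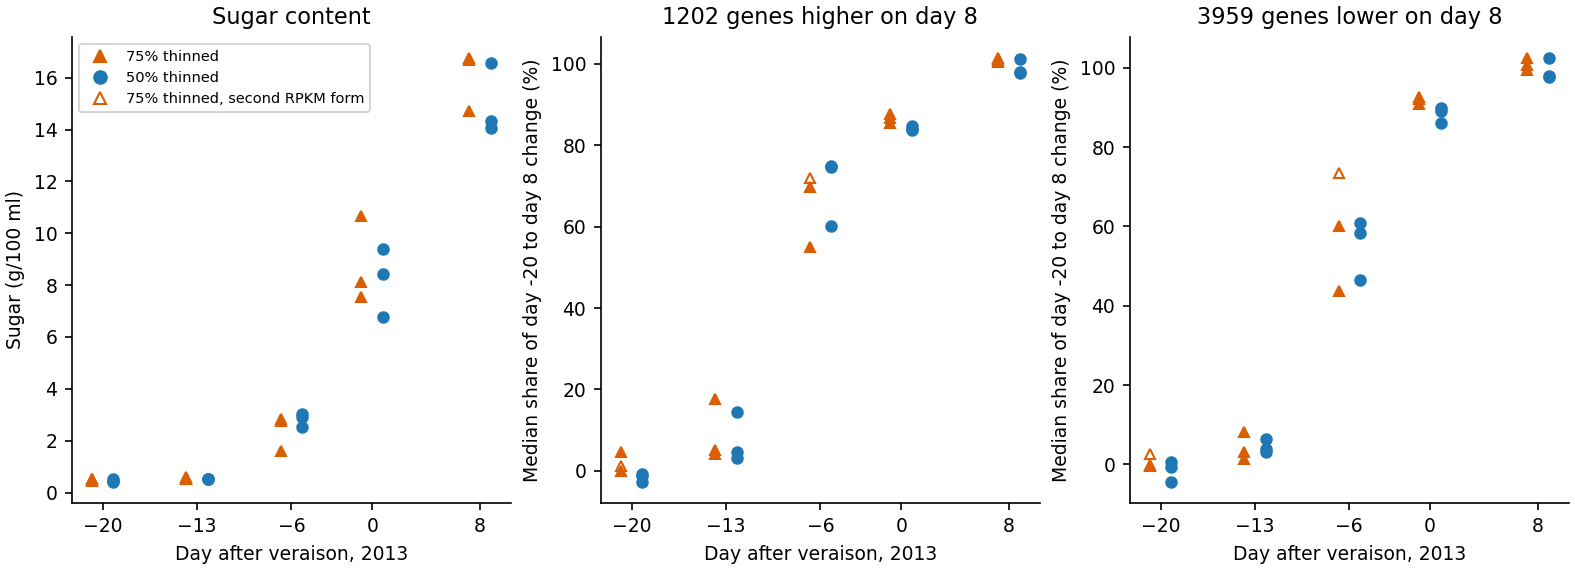
Sugar content in g/100 ml (left), and the median share in percent of the day -20 to day 8 log2 change over the 1202 genes higher (middle) and 3959 genes lower (right) on day 8, for each library of 2013 by day after veraison; triangles are 75% and circles 50% thinned pools, and open triangles are libraries with the second form of values. On day -6 sugar lies between 1.60 and 3.03 g/100 ml and the shares lie between 54.9% and 74.9% and between 43.7% and 73.5%.

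On day -6 the replicate pools spread more in the genes that fell than in those that rose, and on day -13 less. The median SD of log2(RPKM + 1) within an arm was 0.348 on day -6 and 0.205 on day -13 for genes that fell, and 0.276 on day -6 and 0.262 on day -13 for genes that rose. Without the library that stood apart it was 0.304 for genes that fell and 0.250 for genes that rose on day -6. Over all tested genes it was 0.132 on day -20, 0.122 on day -13, 0.147 on day -6, 0.0986 on day 0 and 0.0914 on day 8. Day -6 had the highest value of the 5 days over all tested genes. Without the library that stood apart its value was 0.135, close to the 0.132 of day -20, which still held a library of the second form. Whether day -6 stays above day -20 without both libraries was not tested.

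Whether the more advanced pools of day -6 also held more sugar could not be shown. A score was taken as the mean log2 level of 174 genes that rose minus that of 1085 genes that fell at veraison in both 2012 and 2014, so that no library of 2013 chose them. It was 1.44, 1.66 and 0.06 in the 75% arm and 1.46, 0.49 and 1.59 in the 50% arm on day -6, and lay between -2.45 and -1.76 on day -13. Over the 6 pools of day -6 Pearson's r with sugar was 0.66 (exact permutation p = 0.15, adjusted 0.3 over 2 tests) and Spearman's rho was 0.26 (exact permutation p = 0.658, adjusted 0.658). Without the 2 pools farthest from the median sugar r was -0.21 (n = 4). The relation rests on replicate 3 of the 75% arm, the pool with least sugar, without which r was -0.37; without any other single pool r lay between 0.63 and 0.92. An arm holds 3 pools, too few for a value of its own.

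The called genes changed in the same direction in both thinning intensities, with 1 exception. Of the genes that rose, 637 of 637 had a positive change in both arms, and of those that fell, 1806 of 1807 had a negative one. The median log2 change of the genes that rose was 1.52 in the 75% arm and 1.59 in the 50% arm, and that of the genes that fell was -1.39 in the 75% arm and -1.31 in the 50% arm. Taken alone, the 75% arm called 609 increases (2.93%) and 1965 decreases (9.46%), and the 50% arm 677 increases (3.26%) and 1689 decreases (8.13%). The genes were called on the mean of both arms, which largely sets these signs, so they are a description and no test.

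No difference between the arms passed the test. The interaction of day and thinning gave 0 calls of 20770 (0%) in limma, with 1311 genes (6.31%) at an unadjusted p under 0.05 and a smallest adjusted p of 0.763. On day -6 itself, 75% against 50% thinning gave 0 calls (0%), with 714 genes at an unadjusted p under 0.05 and a smallest adjusted p of 1. With the spread shared by all libraries of the series 5 and 18 genes were called, which is the only setting besides single libraries left out that gave any call. A missed threshold does not show that the arms were alike: 3 pools an arm and the spread given above limit what could be seen.

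The week stood between quieter ones. Day -13 against day -20 called 179 genes (0.862%), and day 0 against day -6 called 1186 (5.71%). These steps share the libraries of day -13 or of day -6 with the main comparison. The medians that follow are of genes called on those libraries, and that choice pulls the adjoining steps the other way. They are therefore a description and no test of how these genes moved before or after the week. The genes that rose had a median log2 change of 0.17 in the step before and 0.26 in the step after, beside 0.01 and -0.11 over all genes. The genes that fell had 0.02 in the step before and -0.54 in the step after. Without the libraries of the second form the step before called 150 genes and the step after 1362.

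Most of these changes were still present later in the season, in libraries that played no part in the calls. The following comparisons share the libraries of day -20. Against these, 529 of the 637 genes that rose (83%) were higher on day 0, 540 (84.8%) on day 8 and 416 (65.3%) on day 29, where 4.91%, 5.79% and 9.98% of all tested genes were higher. Of the 1807 genes that fell, 1563 (86.5%) were lower on day 0, 1605 (88.8%) on day 8 and 1517 (84%) on day 29, where 17.2%, 19.1% and 23.4% of all tested genes were lower. On day 29, 36 genes that had risen were called lower than on day -20 and 23 that had fallen were called higher.

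By the later days on which they were called, the genes were sorted into a lasting, a passing and a brief group. Among the genes that rose, 377 (59.2%) were higher than on day -20 on days 0, 8 and 29. Their median level was 6.89 RPKM on day -13, 36.8 RPKM on day -6, 50.9 RPKM on day 0 and 50.8 RPKM on day 29. Another 169 (26.5%) were higher on day 0 or day 8 and no longer on day 29. Their median was 12.1 RPKM on day -13, 43.7 RPKM on day -6, 32.4 RPKM on day 8 and 11.4 RPKM on day 29. The return by day 29 follows from how these genes were chosen.

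A smaller set of 52 genes (8.16%) was called higher on none of days 0, 8 and 29. Their median level was 9.86 RPKM on day -13, 22.2 RPKM on day -6, 11.8 RPKM on day 0 and 12.1 RPKM on day 8, which describes a peak seen on day -6 alone among the sampled days. Because these genes were chosen as higher on day -6 than on day -13 and not higher later, the shape follows from the choice.

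Among the genes that fell, 1395 (77.2%) were lower than on day -20 on days 0, 8 and 29. Their median level was 17.0 RPKM on day -13, 5.24 RPKM on day -6, 2.13 RPKM on day 0 and 1.12 RPKM on day 29. A set of 184 (10.2%) was lower on day 0 or day 8 and no longer on day 29. Their median was 18.6 RPKM on day -13, 6.57 RPKM on day -6, 4.37 RPKM on day 0, 8.70 RPKM on day 22 and 12.2 RPKM on day 29; this recovery too follows from the choice. A further 106 (5.87%) were called lower on none of these days.

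**Figure D4:**
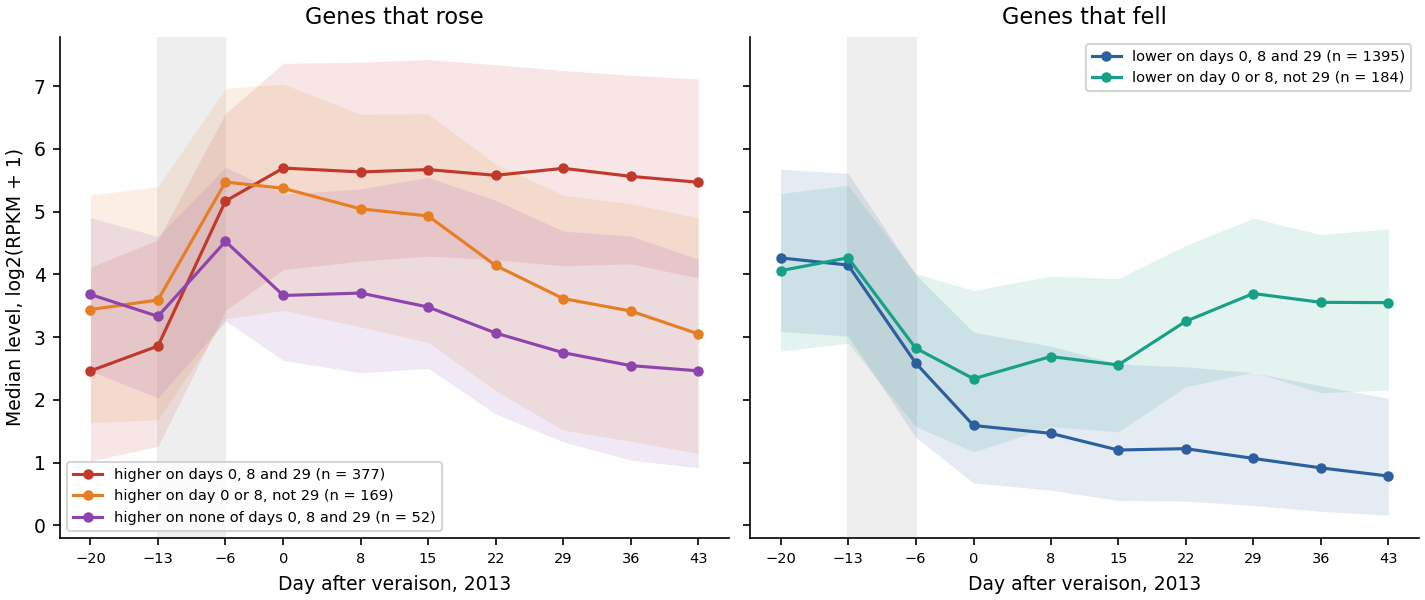
Median level, log2(RPKM + 1), of groups of the genes that rose (left) and fell (right) over the days of 2013, with the quartiles as bands and the interval from day -13 to day -6 in grey; groups are set by which of days 0, 8 and 29 differed from day -20. The 377 lasting increases stay near 50 RPKM to day 29 while the 169 passing ones return to 11.4 RPKM, and 184 of the decreases recover to 12.2 RPKM on day 29.

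The same switch was looked up in the other seasons, whose libraries are all separate. In 2012 day 0 was set against day -9 (sugar 7.57 ± 1.39 g/100 ml on day 0 and 1.24 ± 0.45 on day -9, SD, n = 6 each), and 437 of the 637 genes that rose in 2013 (68.6%) rose and 1238 of the 1807 that fell (68.5%) fell. Of all tested genes 3.18% rose and 10.7% fell in 2012, or 908 and 1567 genes in place of 661 and 2225 after median ratio scaling. The median log2 change in 2012 of the genes that rose in 2013 was 1.36 and that of the genes that fell was -1.35. Only 1 of the genes that rose in 2013 was called lower in 2012, and 3 of those that fell were called higher.

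In 2014 fewer of these genes moved between the days compared. Day 8 against day 0 (sugar 11.7 ± 0.88 g/100 ml on day 8 and 3.04 ± 1.15 on day 0, SD, n = 6 each) showed increases in 139 (21.8%) and decreases in 748 (41.4%) of the 2013 genes. Of all tested genes 1.46% rose and 7.79% fell in that week, or 531 and 1029 genes in place of 303 and 1618 after median ratio scaling. The earlier day of 2014 had a mean sugar content above that of the later day of 2013 (2.61 ± 0.52 g/100 ml), with ranges of 1.20 to 4.65 and 1.60 to 3.03 g/100 ml; the part of this in the counts was not tested. Over a longer span of 2014, day 8 against day -14 (0.512 ± 0.033 g/100 ml on day -14), 481 (75.5%) of the genes that rose were higher and 1431 (79.2%) of those that fell were lower, beside 5.09% and 19.7% of all tested genes; this span was chosen after the data were seen.

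Taken from the other side, genes chosen in other seasons were looked up in 2013. Of the 174 genes that rose in both 2012 and 2014, 120 (69%) rose in 2013 and 3 fell, and of the 1085 that fell in both, 684 (63%) fell and 0 rose, beside 3.07% that rose and 8.7% that fell among all tested genes. Without the library that stood apart these counts were 117 and 612. Of genes that rose in 2012 and not in 2014, 64.9% (313 of 482) rose in 2013, and of those that rose in 2014 and not in 2012, 15% (19 of 127) did. For decreases the shares were 48.5% (552 of 1138) and 12.1% (64 of 528), and that of genes that fell in 2014 alone lies near the 8.7% of all tested genes that fell. Pearson's r of the log2 changes across the 20770 genes was 0.81 between 2013 and 2012 and 0.54 between 2013 and 2014; this is a description, since genes are no replicates.

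**Figure D5:**
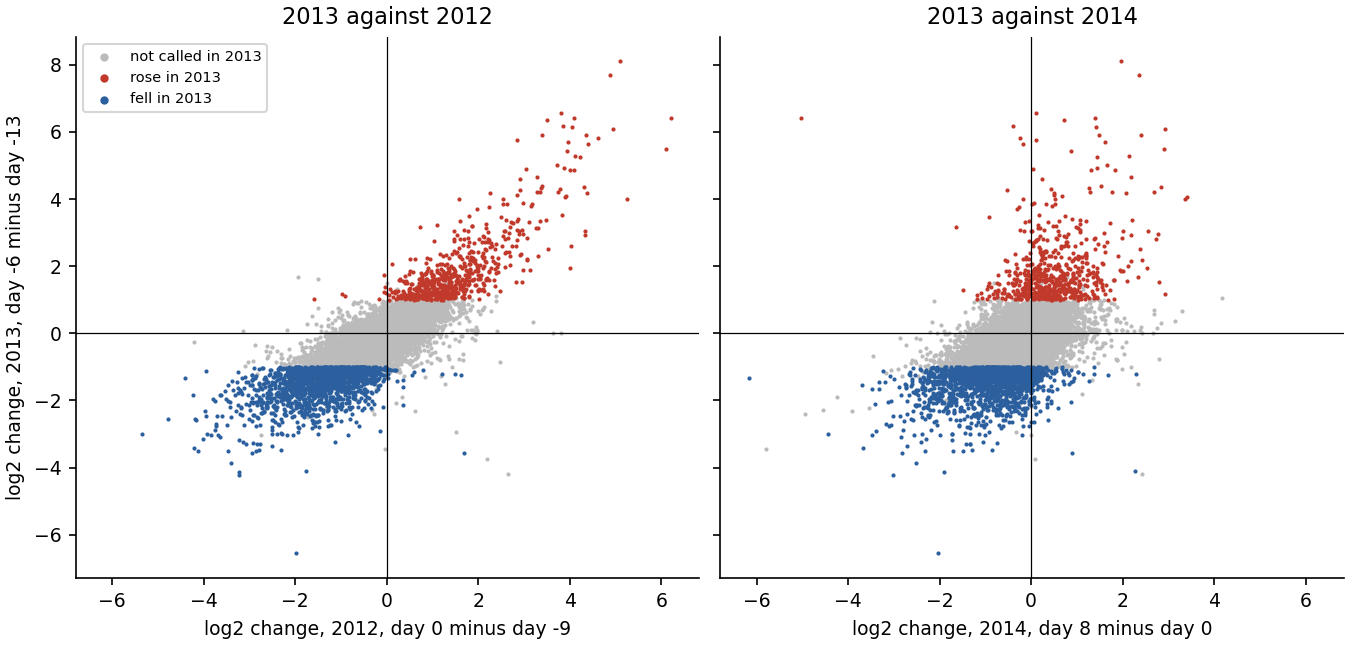
The log2 change of each of the 20770 tested genes in 2013, day -6 minus day -13, is plotted against its change in 2012, day 0 minus day -9 (left), and in 2014, day 8 minus day 0 (right). Red points rose and blue points fell in 2013; in 2014 the genes with the largest 2013 increases lie close to 0 or a few units above it.

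The difference between the seasons was tested directly, in 2 contrasts that share the libraries of 2013. Between 2013 and 2012 the step differed for 495 genes (2.38%) in limma, with 283 changes higher in 2013 (1.36%) and 212 lower (1.02%). After median ratio scaling the split turned to 178 higher and 264 lower, and without the library that stood apart it was 351 and 189. Between 2013 and 2014 it differed for 1526 genes (7.35%), with 798 higher (3.84%) and 728 lower (3.51%), for 539 and 917 after median ratio scaling, and for 824 and 662 without that library. Calling direction was seldom opposite: 1 gene rose in 2013 and fell in 2012, and 3 fell in 2013 and rose in 2012, while 6 rose in 2013 and fell in 2014 and 8 fell in 2013 and rose in 2014.

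The gene called as rising in 2013 and falling in 2012 was VIT_04s0023g02200. It averaged 20.9 RPKM ± 2.80 on day -6 and 9.69 ± 1.06 on day -13 of 2013, and 9.11 ± 3.40 on day 0 and 27.9 ± 3.06 on day -9 of 2012 (SD, n = 6 each). Its log2 change was 1.03 in 2013 and -1.58 in 2012, and the difference of 2.61 (SE 0.25) had a limma adjusted p = 3.38e-06. In 2013 it did not hold the level of day -6, since it averaged 4.27 RPKM on day 0, 10.1 RPKM on day 8 and 59.6 RPKM on day 29.

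VIT_06s0004g00070 was highest on day -6 among the days of 2013 up to day 29. It averaged 92.9 RPKM ± 21.2 on day -6 and 11.1 ± 7.31 on day -13 of 2013, and 78.8 ± 23.1 on day 0 and 49.6 ± 24.4 on day -9 of 2012 (SD, n = 6 each). The change was larger in 2013 by 2.45 on the log2 scale (SE 0.50, limma adjusted p = 0.00203). In 2013 it went on to 65.4 RPKM on day 0, 17.0 RPKM on day 8 and 0.825 RPKM on day 29, so the earlier day of 2012 lay well above that of 2013 while the later days overlapped.

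Stronger decreases in 2013 than in 2012 were those of VIT_04s0008g07230 and VIT_18s0166g00250. The first averaged 0.482 RPKM on day -6 and 10.6 RPKM on day -13 of 2013, and 0.349 RPKM on day 0 and 1.67 RPKM on day -9 of 2012. On day -6 the library that stood apart alone was listed at 0, and on day 0 of 2012 some libraries were. The difference of this gene was -2.18 (SE 0.36, limma adjusted p = 0.000388). The second averaged 1.66 RPKM on day -6 and 18.6 RPKM on day -13 of 2013, and 1.48 RPKM on day 0 and 2.74 RPKM on day -9 of 2012, with a difference of -2.15 (SE 0.43, limma adjusted p = 0.00176). Both were already low on day -9 of 2012.

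The genes named here for a positive difference against 2014 were already high on day 0 of that season. They do not stand for all 798 positive differences. Of these, 377 were of genes called as rising in 2013 and 233 of genes called as falling in 2014. VIT_08s0007g08330 averaged 299.8 RPKM ± 77.8 on day -6 and 13.8 ± 20.9 on day -13 of 2013, and 185 ± 46.6 on day 8 and 246 ± 74.7 on day 0 of 2014 (SD, n = 6 each). VIT_06s0061g00550 averaged 3753 RPKM ± 672 on day -6 and 195 ± 287 on day -13 of 2013, and 4234 ± 784 on day 8 and 4079 ± 1294 on day 0 of 2014. The differences of the change were 6.56 (SE 1.15, limma adjusted p = 0.000215) for VIT_08s0007g08330 and 6.46 (SE 1.30, limma adjusted p = 0.000744) for VIT_06s0061g00550. On day -13 of 2013 both varied widely between pools, from 0.148 to 40.9 RPKM and from 7.69 to 577 RPKM.

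VIT_05s0020g03190 and VIT_16s0039g01100 fell between day -13 and day -6 of 2013 and not between day 0 and day 8 of 2014. Whether they fell before day 0 of 2014 was not examined. VIT_05s0020g03190 averaged 13.3 RPKM ± 4.82 on day -6 and 83.5 ± 24.4 on day -13 of 2013, and 19.8 ± 4.52 on day 8 and 15.0 ± 4.17 on day 0 of 2014, a difference of -2.96 (SE 0.31, limma adjusted p = 1.19e-06). VIT_16s0039g01100 averaged 0.679 RPKM ± 0.241 on day -6 and 6.35 ± 2.79 on day -13 of 2013, and 1.64 ± 0.594 on day 8 and 0.428 ± 0.121 on day 0 of 2014, a difference of -2.92 (SE 0.28, limma adjusted p = 4.60e-07). The level of day 0 of 2014 was close to or below that of day -6 of 2013 for both, and the log2 change of VIT_16s0039g01100 in 2014 was 0.86.

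The 2 named increases moved in all 3 seasons. VIT_02s0025g04330 changed by 8.10 in 2013, 5.11 in 2012 and 1.95 in 2014 on the log2 scale, and VIT_05s0094g00340 by 7.71, 4.89 and 2.36. The test of the season difference gave limma adjusted p = 0.131 and 0.17 against 2012, and 3.68e-06 and 2.21e-05 against 2014. On the earlier day the mean of VIT_02s0025g04330 was 7.32 RPKM in 2013, 338 RPKM in 2012 and 1444.5 RPKM in 2014. VIT_15s0045g01490 changed by -4.23, -3.22 and -3.01 and VIT_02s0154g00320 by -3.86, -3.41 and -2.51 in the same order of seasons.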

How the data were processed

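The deposited table holds RPKM values that the authors computed from non-strand-specific libraries. Per the submitters' processing notes the tools included Cufflinks 2.0.2 and TopHat2 2.0.6; for settings, genome build and annotation, nothing is given in the sources used here. Columns were matched to samples through the titles, which left 0 columns over. Whole reads were not recovered: the 12 libraries list 52 to 227 values above 0 and under 0.01 RPKM each, so depth is unknown and no counting interval was computed. An exact 0 can be a failed estimate; 91 tested genes held a 0 where both other replicates had at least 5 RPKM, and 7 of these were called. Reads of overlapping antisense genes, and of near-identical genes, cannot be assigned with certainty. Sugar content was taken from the labels.

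With limma 3.58.1 (R 4.3.3), log2(RPKM + 1) was fitted with an intensity trend, 1 mean per day and thinning intensity, equal weight on both arms, Benjamini-Hochberg adjustment over 20770 genes, 0.05 and at least 2-fold. Only the libraries compared entered a fit. Sugar and correlations were tested by exact permutation (Python 3.11.15, numpy 2.4.6, scipy 1.17.1). Named genes were the 2 largest increases and decreases among calls with days that did not overlap, a mean of at least 5 RPKM on the higher day, a call without the library that stood apart, and no such 0. The libraries, lists and tests were chosen with earlier results of these data known. Median ratio scaling, quantile normalization, other pseudocounts and filters, and leaving out each library were tried. Tested on simulated data with the means and spread of the 20770 genes, the comparison of day -6 with day -13 called 2% of 50 genes changed 1.5-fold, 94% of those changed 2.5-fold, 100% of those changed 4-fold and 98% of those changed 8-fold, with 2 false calls. The changed genes were drawn from those with a mean log2(RPKM + 1) above 2, so recovery at lower levels was not tested. The simulated noise was independent between libraries and of equal spread on both days.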

Additional observations from a re-analysis of the deposited data

Results flagged for a closer look

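In 26 groups of 6 libraries the highest or lowest value was compared with its neighbour, and 3 groups held a library far from the rest; chance flags about 1 in 20 groups. Replicate 3 of the 75% arm on day -6 had a sugar content of 1.60 g/100 ml, and its gap to the next pool was 0.657 of the range of that day. Replicate 2 of the 75% arm on day -6 listed 34 steadily expressed genes under 0.5 RPKM and 37 genes at 0 that its fellow replicates held at 5 RPKM or more.

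Between seasons the log2 change of day -6 against day -13 of 2013 differed from that of day 0 against day -9 of 2012 by 2.61 for VIT_04s0023g02200, 2.45 for VIT_06s0004g00070, -2.18 for VIT_04s0008g07230 and -2.15 for VIT_18s0166g00250. From that of day 8 against day 0 of 2014 it differed by 6.56 for VIT_08s0007g08330, 6.46 for VIT_06s0061g00550, -2.96 for VIT_05s0020g03190 and -2.92 for VIT_16s0039g01100. Each of the 8 differences was chosen among those that passed the limma test of the difference itself. Season and berry stage cannot be told apart in them.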

How the results depend on the processing

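The calls between day -6 and day -13 depended most on the pseudocount and the fold. A pseudocount of 0.1 gave 3763 calls, of which 2865 fell, and one of 5 gave 1223, of which 398 rose and 825 fell. With no fold demanded 13303 genes were called (4545 rose, 8758 fell), and at 4-fold 451 (186 rose, 265 fell). Leaving out each of the 12 libraries gave 2189 to 2718 calls, 613 to 675 increases and 1576 to 2043 decreases. The 4 named genes kept their call in all 22 alternatives. With the spread shared by all libraries of the series, 5 genes were called for the interaction and 18 for thinning on day -6; leaving out single libraries gave 0 to 2 for either. The sugar difference lay between 2.00 and 2.28 g/100 ml without single pools. Pearson's r of score and sugar ran from -0.37, without replicate 3 of the 75% arm, to 0.92; the cause was not tested. With the replicate block the calls were 2444. Same-numbered pools deviated together with r of 0.09 to 0.17 in the 75% arm and of -0.10 to -0.03 in the 50% arm. In the 75% arm each pool deviated most like the pool of its own number, and in the 50% arm none did. The numbers were not taken to pair the pools. Of the answers to the comparisons recomputed under an alternative, 123 stayed within 1.5 times or kept their call, 20 moved and 1 reversed.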

Other observations

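Called genes lay beside each other in the order of the gene IDs more often than the background. Of 490 genes that rose and whose next ID was also tested, 13.9% were followed by another gene that rose, beside 3.07% of all tested genes. Of 1314 such genes that fell, 18.9% were followed by another that fell, beside 8.7%. Runs of at least 3 consecutive IDs with the same call numbered 8 among genes that rose (29 genes) and 39 among genes that fell (133 genes), with at most 5 genes in a run. The assignment of reads that near-identical neighbours share was not known, and no positions were used.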
